A study of Mus musculus with 12 samples.

Results

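The difference between miR-214-/- and WT splenic T cells was measured over both treatments, with 6 libraries of miR-214-/- mice against 6 of WT mice and sham or Ang II infusion as a covariate without an interaction term. All 12 of the 12 libraries of the series entered. Of 49315 genes in the table, 16770 had enough counts to be tested. The groups were WT sham, WT Ang II, miR-214-/- sham and miR-214-/- Ang II, each of 3 male mice with 1 library per mouse. The mice were 12 weeks old at the start of infusion. Minipumps gave Ang II (490 ng/kg per day) to the treated mice, sham mice received a vehicle, and infusion lasted 14 days in both. The miR-214-/- mice lacked miR-214 in all tissues, so cells other than T cells lacked it too. The methods give a C57BL/6N backcross of these mice for other experiments of the study, and a strain background for the mice sequenced is not given in the sources used here. T cells were taken from the spleen by magnetic negative selection, which leaves the unlabelled cells, and a fraction of other cells can stay with them.

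MiR-214 is a microRNA (miR), a short RNA that guides Argonaute proteins to matching sites in the 3' UTRs of mRNAs. Pairing rests mostly on the seed at the 5' end of the miR and usually lowers the level of the mRNA or of its protein. MiR-214 and its neighbour miR-199a-2 are cut from the long non-coding RNA Dnm3os, which runs opposite to Dnm3, the gene of a dynamin. The mature sequences are shown because they define the sites counted further on. They come from RefSeq (GRCm38.p6, plus strand), with the seed in capitals. MiR-214-3p lies at chr1:162223438-162223459 and miR-214-5p at chr1:162223397-162223418.
miR-214-3p: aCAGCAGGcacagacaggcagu
miR-214-5p: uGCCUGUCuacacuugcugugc

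The site that pairs with positions 2 to 8 of miR-214-3p reads CCTGCTG on the mRNA strand. It is shown in capitals for 3 published targets, with 10 annotated bases to either side and GRCm38 coordinates of the 7 capitals. Their mRNA levels are given further on. Ezh2, a histone methyltransferase, has it at chr6:47552453-47552459 on the minus strand. Xbp1, a transcription factor of the unfolded protein response, has it at chr11:5525104-5525110 on the plus strand. Bcl2l11, the cell death activator BIM, has 3 such sites, the shown one at chr2:128162087-128162093 on the plus strand.
Ezh2: tcggaaatttCCTGCTGataaaatatt
Xbp1: caccttcttgCCTGCTGgacgctcaca
Bcl2l11: gttttgtcttCCTGCTGattcagcctg

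Total counts per library were between 21126874 and 29605988. The T cell receptor gene Cd3e was between 284 and 460 CPM (counts scaled to the size of the library) in the 12 libraries, Lck, a kinase of the receptor, between 515 and 939 CPM, and Cd4 between 363 and 573 CPM. Markers of other cells were present in every library. The mean log2 CPM of 21 red-cell precursor genes ranged from 3.22 to 7.07, and that of 14 B cell genes from 2.58 to 5.52. Library miR-214-/- Ang II 1 stood apart from its group, with a mean log2 CPM over 30 cell cycle genes of 6.12 against 5.06 and 5.14 in the other 2. The genotype labels could not be checked. No library held a count of Mir214 or Mir199a-2 (0 counts each, which allows up to 3 per library). Mature miRs have no poly(A) tail, and the libraries were made from poly(A) RNA. Dnm3os had 1 count in 1 WT Ang II library. Dnm3 had between 5 and 25 counts per library, and its log2 fold change of 0.22 (standard error 0.38) was within the spread between libraries.

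No gene was called for genotype over both treatments. The quasi-likelihood test of edgeR gave 0 of 16770 genes an adjusted p under 0.05 (0%), and the smallest adjusted p was 0.453, for Npm3-ps1. At an unadjusted p under 0.05 there were 309 genes, 1.84% of those tested, of which 160 were higher (0.954%) and 149 lower (0.888%) in miR-214-/-. That share was below the one the threshold itself gives without any effect. DESeq2, the tool of the study, called 1 gene, which was Npm3-ps1, with an adjusted p of 9.28e-07. The call of this gene thus depended on the tool. The log2 fold changes were small, with quartiles of -0.08 and 0.07 around a median of 0. Only 73 genes (0.435%) had an absolute log2 fold change over 1. For 14344 genes (85.5%) the 95% interval lay within -1 and 1, so a change larger than 2-fold was outside it. Among 6094 genes with a mean log2 CPM over 5, this held for 6024. The intervals cover the average over both treatments only, and a genotype effect that differs between treatments widens them. Frmd4a had -0.21 (standard error 0.24) over both, from 0.55 in sham and -0.96 in Ang II (standard error 0.11 in each).

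The differences in sham and in Ang II mostly ran in opposite directions. Both were read from 1 fit over the 4 group means, and the contrasts have no library in common. Across the 16770 genes the log2 fold changes in sham and in Ang II had a Pearson r of -0.42, and 32.2% of genes had the same sign in both. Genes are not independent replicates, and this r is a description. In sham 0 genes were called by edgeR (0%), with 722 at an unadjusted p under 0.05 (4.31%) and 9 called by DESeq2. In Ang II 1 gene, Frmd4a, was called (0.00596%), with 2072 unadjusted (12.4%) and 102 called by DESeq2. Without miR-214-/- Ang II 1, edgeR called 862 genes in Ang II, and over both treatments it still called 0. The difference between the 2 effects was itself called for 1 gene (0.00596%), again Frmd4a, with 2483 genes unadjusted (14.8%). For 271 genes (1.62%) the groups were apart in both treatments in opposite directions, 149 of them higher in sham and lower in Ang II (0.888%) and 122 the reverse (0.727%).

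In a smaller set the genotypes were apart in the same direction in both treatments. For 34 genes (0.203%), all 3 miR-214-/- libraries lay on the same side of all 3 WT libraries in sham and again in Ang II. Of these, 19 were higher (0.113%) and 15 lower (0.0894%). They were of small size, with a median absolute log2 fold change of 0.32 and 4 genes over 1, and 26 of the 34 were protein coding. None passed the adjusted test, and 32 had an unadjusted p under 0.05. With genotype labels permuted within treatments, a gene is apart this way with a probability of 0.005, so the share of 0.203% was not an excess. The same probability holds for a gene apart in opposite directions, where the share of 1.62% was above it. Genes are not independent, and both shares are descriptions. All 6 miR-214-/- libraries were beyond all 6 WT libraries, treatment disregarded, for 5 genes (0.0298%): Npm3-ps1 and Tmem237 higher, and Sfxn2, Arl3 and 4930577N17Rik lower. The last gene and Tmem237 were named after their values were seen.

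**Figure D1:**
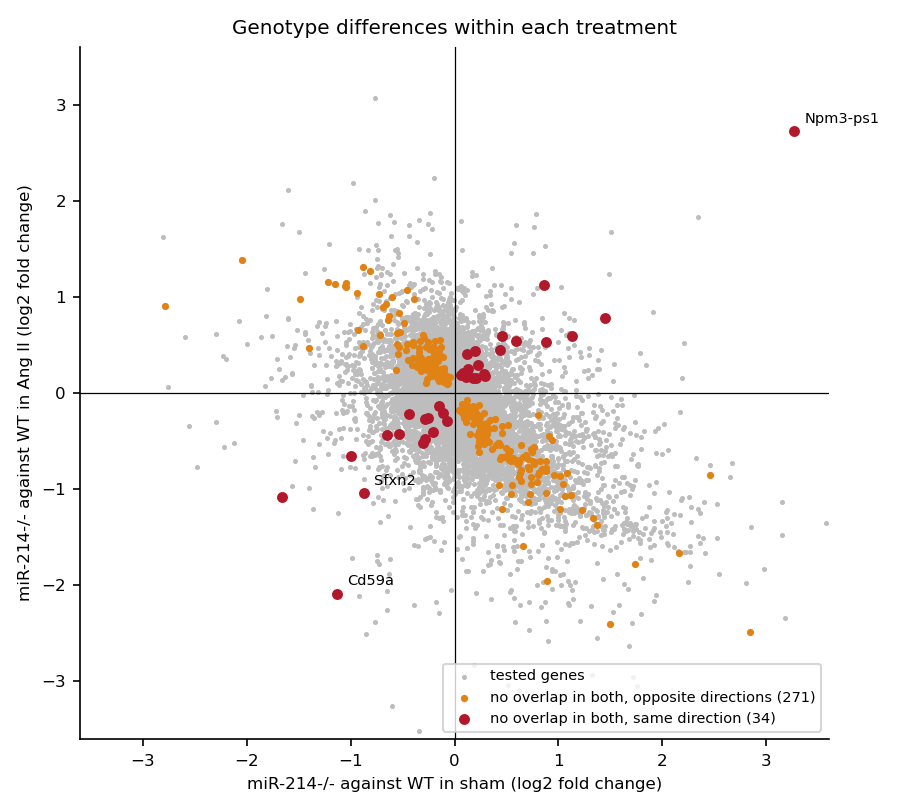
Log2 fold change of miR-214-/- against WT in sham (x axis) and in Ang II (y axis) for each tested gene, with 21 genes outside the axes. Red points are the 34 genes whose groups were apart in the same direction in both treatments, orange points the 271 apart in opposite directions, and the cloud runs from upper left to lower right.

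Of the genes higher in miR-214-/-, Npm3-ps1 stood alone. It is a processed pseudogene of Npm3, a histone chaperone gene of the nucleoplasmin family, and lies on chromosome 6 from 85076192 to 85076719. WT sham libraries had 0, 5 and 5 counts and WT Ang II libraries 2, 7 and 6. The miR-214-/- libraries had 43, 22 and 40 counts in sham and 45, 38 and 15 in Ang II. Every miR-214-/- library was above every WT library. The log2 fold change was 2.98 (standard error 0.45, 95% interval 1.99 to 3.96), with 3.27 in sham and 2.72 in Ang II. An exact permutation test within treatments gave p = 0.005 (two-sided), the smallest that 400 arrangements can give. Any gene apart in the same direction in both treatments gets this p, so it restates the lack of overlap. The parent gene Npm3 lies on chromosome 19 (45747734 to 45749591), 0.84 Mb from Sfxn2, in the region described further on. Its log2 fold change was -0.08 (standard error 0.11), with 45.0 to 64.5 CPM in miR-214-/- and 51.3 to 73.6 CPM in WT. Reads of a pseudogene and its parent can be near identical, so the pseudogene's value is uncertain.

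Gbp2b, an interferon-induced guanylate-binding protein on chromosome 3 (142594847 to 142619179), came next. It was at 46.8, 53.8 and 51.5 CPM in WT sham and at 107, 90.6 and 106 CPM in miR-214-/- sham, with no overlap. In Ang II it was at 40.7, 76.3 and 38.7 CPM in WT and at 65.7, 53 and 106 CPM in miR-214-/-, where the groups overlapped. The log2 fold change over both was 0.76 (standard error 0.20, adjusted p = 1 from edgeR). In a fit of the sham libraries alone it was 1.0 with an adjusted p of 0.0203 from edgeR.

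The other 3 higher genes differed by less. Tmem71, a little studied transmembrane protein gene on chromosome 15, was at 199, 203 and 173 CPM in WT sham against 228, 217 and 214 CPM in miR-214-/- sham, and at 129, 136 and 123 CPM in WT Ang II against 137, 195 and 195. It was higher in miR-214-/- without overlap in both treatments (log2 fold change 0.32, standard error 0.09). Fbxo32, the ubiquitin ligase subunit atrogin-1, was at 39.8, 45.9 and 40.8 CPM in WT sham and at 48.9, 59.3 and 45.9 CPM in miR-214-/- sham. In Ang II it was at 25.2, 27.2 and 21 CPM in WT and at 28, 35.9 and 31 CPM in miR-214-/-. The Fbxo32 groups met at 45.9 CPM in sham and were apart in Ang II (log2 fold change 0.33, standard error 0.09). Zfp763, a zinc finger gene, had a log2 fold change of 0.30 (standard error 0.08), with 11.1 to 13.5 CPM in WT and 13 to 16.3 CPM in miR-214-/-.

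Of the genes lower in miR-214-/-, the smallest p belonged to Sh3pxd2a on chromosome 19 (47260174 to 47464401), the podosome scaffold TKS5. It was at 80.8, 74.1 and 73.5 CPM in WT sham and at 45.2, 58.3 and 54.6 CPM in miR-214-/- sham. In Ang II it was at 65.4, 48.2 and 47.2 CPM in WT and at 40.4, 44.5 and 34.6 CPM in miR-214-/-. The groups were apart in both treatments (log2 fold change -0.48, standard error 0.10, unadjusted p = 0.000349, adjusted p = 1 from edgeR). Sfxn2, a sideroflexin of the mitochondrial membrane on the same chromosome (46573365 to 46598066), was at 22.9, 22.8 and 20.3 CPM in WT sham and at 20.9, 19 and 20.3 CPM in WT Ang II. The miR-214-/- libraries were at 7.27, 14.4 and 14.4 CPM in sham and at 15, 6.04 and 8.21 CPM in Ang II. The WT values were narrow, and the miR-214-/- values fell into a lower and a higher cluster, both below WT (log2 fold change -0.96, standard error 0.22, 95% interval -1.43 to -0.49). The exact permutation test gave p = 0.005 for Sfxn2 as for Sh3pxd2a, the smallest it can give, which again restates the lack of overlap.

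Cd59a, a membrane inhibitor of the complement attack complex, had low values. It had 15, 31 and 19 counts in WT sham against 10, 13 and 7 in miR-214-/- sham, and 85, 31 and 99 counts in WT Ang II against 25, 14 and 10 in miR-214-/- Ang II. In CPM the groups were apart in both treatments, and the 2 largest values were WT Ang II libraries (log2 fold change -1.66, standard error 0.39). Gas5, a non-coding RNA that hosts small nucleolar RNAs and lies 1.19 Mb from Mir214, was at 214, 256 and 214 CPM in WT sham and at 168, 177 and 173 CPM in miR-214-/- sham. In Ang II it was at 196, 298 and 268 CPM in WT and at 210, 148 and 152 CPM in miR-214-/-, with overlap through 1 library of each. Its log2 fold change was -0.49 (standard error 0.11). Several small RNA genes lie within Gas5 on its strand and Zbtb37 on the other, and the strand setting of the counting is not given in the sources used here. Tnk2, the cytoplasmic tyrosine kinase ACK1, was at 88.2 to 111 CPM in WT and at 81.7 to 91.6 CPM in miR-214-/- (log2 fold change -0.23, standard error 0.06).

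The exact permutation p of these 10 genes was between 0.005 and 0.015, but the genes were named for their small p in the same libraries. All 10 kept their direction under every alternative run, 248 values in all. The alternatives reuse the libraries in which the genes were picked, so the direction was largely given in advance.

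**Figure D2:**
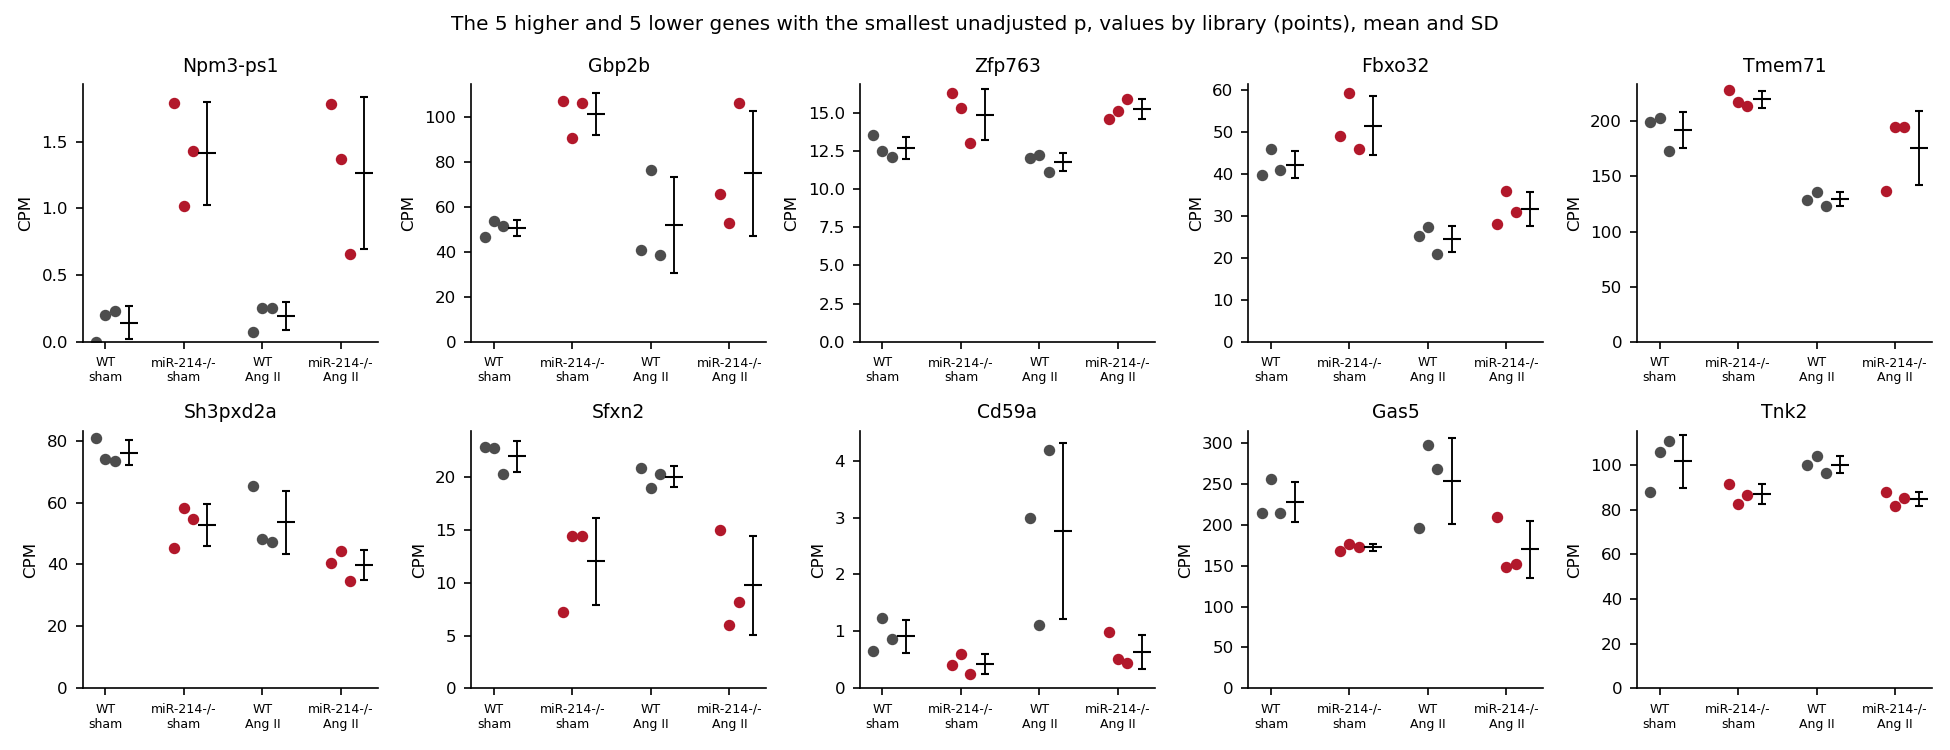
CPM of each library (points) for the 5 higher (top) and 5 lower (bottom) genes with the smallest unadjusted p, in the order WT sham, miR-214-/- sham, WT Ang II and miR-214-/- Ang II. Bars give the mean and SD of 3 libraries, and Npm3-ps1 and Sfxn2 are the genes in which all 6 miR-214-/- libraries were beyond all 6 WT libraries.

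Low p-values clustered on chromosome 19. Within 5 Mb of Sfxn2, 94 genes were tested, and 15 (16%) had an unadjusted p under 0.05 against 1.84% of all genes, 3 of them higher and 12 lower. Of the 34 genes apart in both treatments, 6 lay there. Among 232 bins of 10 Mb with at least 20 tested genes, the bin from 40 to 50 Mb of chromosome 19 had the highest share, 13.9% (15 of 108), while the median bin had 1.5%. Other bins came close. They were chromosome 15 from 60 to 70 Mb (13.6%, 3 of 22), chromosome 1 from 160 to 170 Mb (12%, 10 of 83) and chromosome 3 from 140 to 150 Mb (11.4%, 4 of 35). The region around Sfxn2 was picked after the values were seen, so these shares are a description. The count was 12 to 17 genes when each library was left out in turn.

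Of the genes of this stretch, those lower in both treatments without overlap were Sh3pxd2a, Sfxn2, Btrc, a ubiquitin ligase subunit (log2 fold change -0.41), Sec31b, a coat protein of vesicles leaving the endoplasmic reticulum (-0.55), and Arl3, a small GTPase of cilia (-0.38). Got1, the cytosolic aspartate aminotransferase, was higher without overlap (0.24). Relative to the WT mean of the same treatment, Sfxn2 was at -1.58 log2 CPM in miR-214-/- sham 1, -1.72 in Ang II 2 and -1.28 in Ang II 3, and between -0.61 and -0.42 in the other 3 libraries. Pyroxd2, a mitochondrial oxidoreductase, had its lowest values in the same 3 libraries, at 0.872, 1.41 and 0.873 CPM, where the other 3 were at 2.61 to 3.72 CPM and WT at 3.05 to 4.84 CPM. As3mt, an arsenic methyltransferase that lies 0.14 Mb from Sfxn2, had its highest values there, at 19.2, 20.3 and 21.3 CPM against 12.4 to 14.4 CPM in the other 3 and 11.5 to 13.7 CPM in WT. Mfsd13a, a transporter family gene, was lowest there, at 2.12, 1.74 and 2.71 CPM, at 3.21, 5.08 and 6.40 CPM in the other 3, and at 4.71 to 10.9 CPM in WT. Btrc, Arl3 and Gsto1 were also lowest in these 3 libraries, by less for some. Relative to the WT mean, Btrc was at -0.47, -0.58 and -0.7 log2 CPM there and at -0.32 to -0.14 in the others. Arl3 was at -0.5, -0.4 and -0.78 against -0.28 to -0.11. Gsto1 was at -0.28, -1.16 and -1.18 against -0.25 to 0.07, so its sham 1 value was close to the others. The other genes of the region with a low p did not have this split. Of these, Sh3pxd2a and Sec31b had their values nearest to the WT mean in Ang II 2 (-0.25 log2 CPM relative to it) and Ang II 3 (-0.19). The 3 libraries come from both treatments, and the 2 levels were seen in the data and not tested. Of the other genes of the region with a low p, Kazald1, a secreted protein gene, had a log2 fold change of -1.18 on at most 21 counts per library, and Slk, a kinase of the cytoskeleton, one of -0.18. Stn1, a telomere protein gene, was at -0.20 and R3hcc1l at -0.15. The glutathione transferases Gsto1 and Gsto2 were at -0.43 and 1.24, and both overlap Cfap43 on the other strand.

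**Figure D3:**
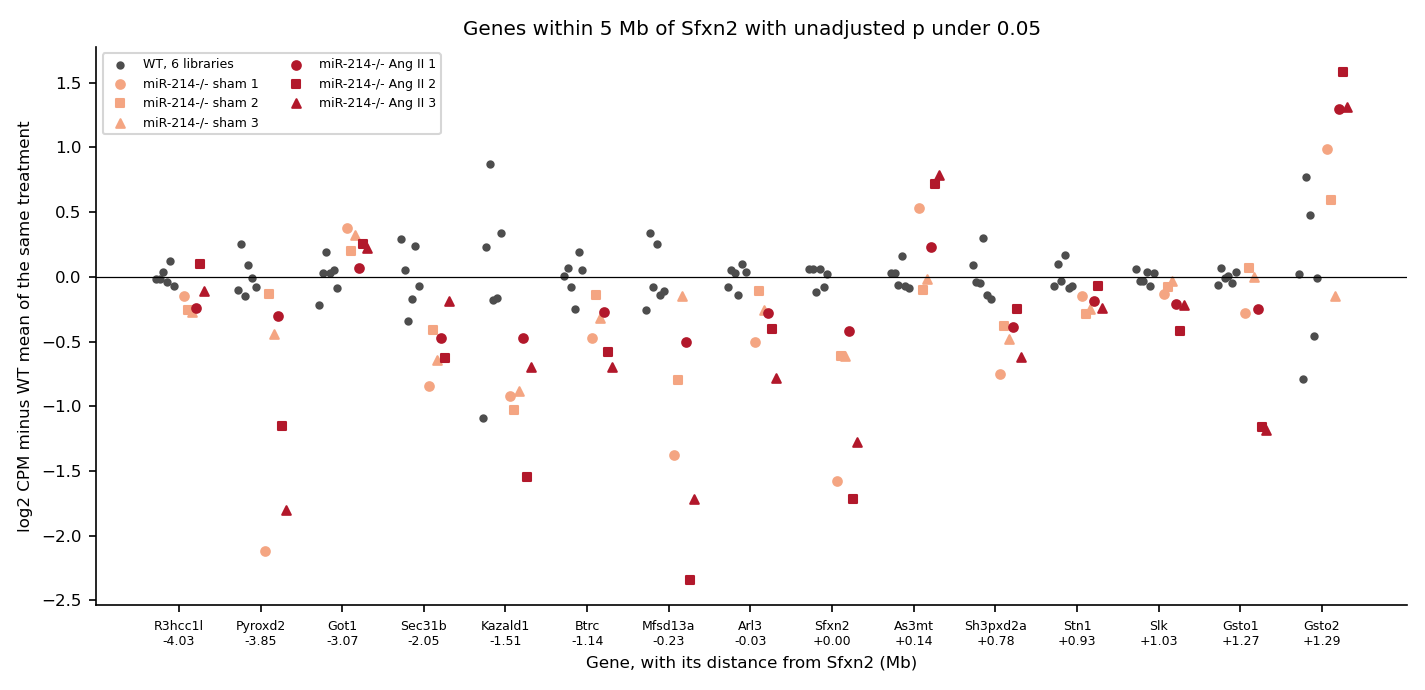
Each library's log2 CPM minus the mean of the 3 WT libraries of its treatment for the 15 genes within 5 Mb of Sfxn2 with an unadjusted p under 0.05, ordered by distance from Sfxn2. Grey points are WT and coloured symbols miR-214-/- libraries. Of the latter, sham 1, Ang II 2 and Ang II 3 lie lowest for Sfxn2, Pyroxd2, Mfsd13a, Btrc, Arl3 and Gsto1 and highest for As3mt.

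Near the deleted locus on chromosome 1 the share of low p-values was also above that of all genes. Within 20 Mb of Mir214, 0 of 317 tested genes were called (0% of all genes), and 13 (4.10%) had an unadjusted p under 0.05. Within 5 Mb it was 10 of 81 genes (12.3%), 5 higher and 5 lower, and 5 to 12 genes when each library was left out in turn. The count fell to 5 without WT Ang II 3 or miR-214-/- Ang II 3, and to 6 without WT Ang II 2 or miR-214-/- sham 1. The median log2 fold change of the 81 genes was 0. Their median absolute log2 fold change was 0.17, against 0.09 within 10 Mb and 0.08 for all genes.

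The 5 lower genes were Gas5, Rc3h1, Xcl1, Serpinc1 and Mrps14. Rc3h1, the RNA-binding protein Roquin-1 that represses T cell costimulator mRNAs, lies 1.28 Mb from Mir214. It was at 152, 152 and 166 CPM in WT sham against 139, 146 and 138 in miR-214-/- sham, and at 123, 132 and 130 CPM in WT Ang II against 112, 116 and 122. The groups were apart in both treatments, by a log2 fold change of -0.14 (standard error 0.04). Xcl1, the chemokine lymphotactin, was at 3.30 to 8.38 CPM in WT and at 2.93 to 4.79 CPM in miR-214-/- (-0.66, standard error 0.21). Among the higher genes, Vamp4, a vesicle fusion protein 0.36 Mb away, had a log2 fold change of 0.16 (standard error 0.06) and Pigc, an enzyme of GPI anchor synthesis 0.25 Mb away, one of 0.19 (standard error 0.08). The other 3 higher genes, Gm7496, Gm18407 and 6720464F23Rik, had at most 1.30 CPM.

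**Figure D4:**
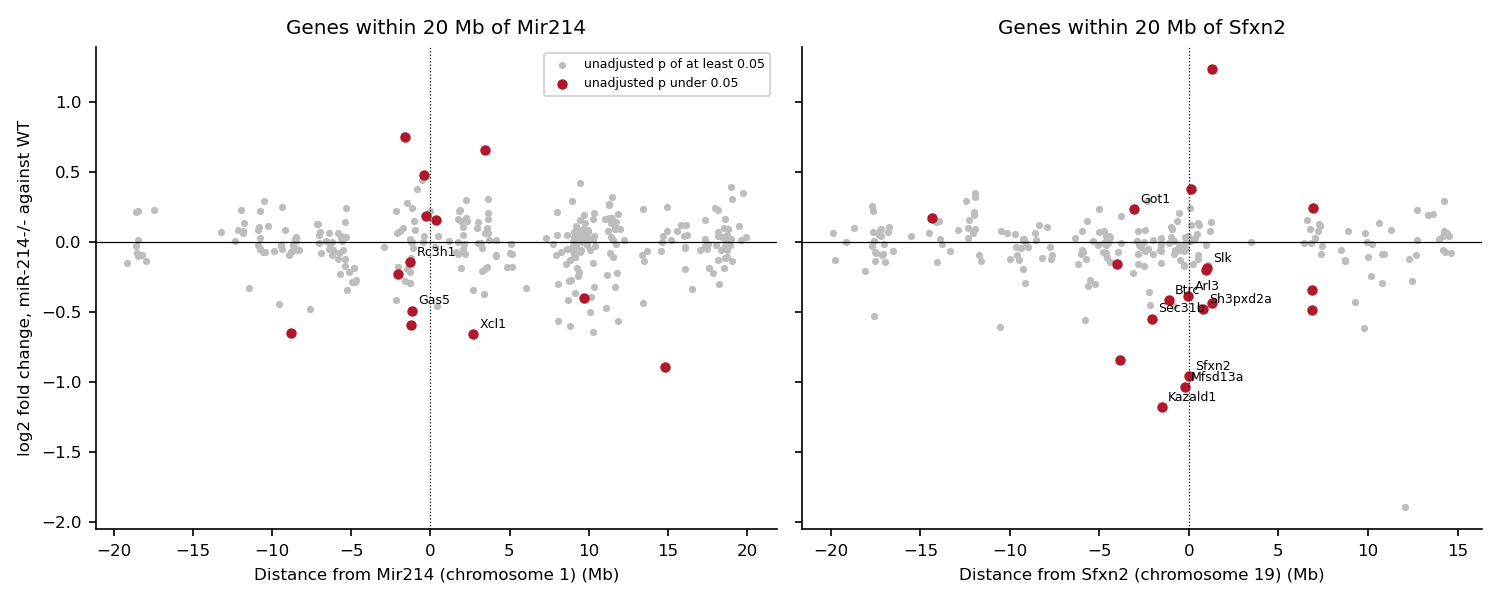
Log2 fold change of miR-214-/- against WT over both treatments (y axis) for tested genes within 20 Mb of Mir214 (left) and of Sfxn2 (right), by distance in Mb (x axis). Red points have an unadjusted p under 0.05, and they gather within 5 Mb of both genes, 10 of 81 around Mir214 and 15 of 94 around Sfxn2.

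The 6 tested genes that differ between C57BL/6 substrains overlapped between the genotypes in both treatments, except Ide in sham. Only mRNA levels were compared, which do not show a difference in sequence alone, and the substrain of the mice was not tested. Nnt, a mitochondrial transhydrogenase, was at 35.9 to 53.8 CPM in WT and at 41.0 to 48.1 CPM in miR-214-/- (log2 fold change -0.03, 95% interval -0.23 to 0.17). Wdfy1 had a log2 fold change of 0.02 (interval -0.12 to 0.17) and Fgfbp3 one of -0.04 (-0.34 to 0.26). Ide, the insulin-degrading enzyme, was at 75.9, 83.7 and 84.9 CPM in WT sham and 86.7, 91.0 and 90.2 CPM in miR-214-/- sham. In Ang II it was at 96.0, 97.2 and 101 CPM in WT and 94.1, 84.6 and 98.2 CPM in miR-214-/-, and its log2 fold change over both was 0.02 (-0.10 to 0.15). Cyfip2, a regulator of actin assembly, was at 0.07 (-0.11 to 0.24). Nlrp12 was low and variable, at 0.501 to 4.53 CPM in WT and 0.262 to 4.08 CPM in miR-214-/-. Entpd4, Entpd4b and Crb1 had at most 10 counts in a library and were not tested.

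Messenger RNAs with a site for miR-214-3p had log2 fold changes close to those of the others. Of 13150 tested genes with an annotated 3' UTR, 3826 (29.1%) held CCTGCTG on the mRNA strand, and 0 of them were called. At an unadjusted p under 0.05, 36 (0.941%) of these were higher and 39 (1.02%) lower, against 0.826% and 0.783% of the 9324 genes without the site. The median log2 fold change was -0.01 with the site and 0 without, and 46.0% and 47.9% were above 0. With the longer site CCTGCTGA, held by 1004 genes (7.63%), the median was 0. At an unadjusted p under 0.05, 12 of these (1.20%) were higher and 12 (1.20%) lower, against 0.832% and 0.823% of the genes without it. Of the 34 genes apart in both treatments, 26 had an annotated 3' UTR, and 10 of the 26 (38.5%) held the shorter site, 3 of 12 higher and 7 of 14 lower. The genes apart in both treatments were chosen by this contrast, so the share is a description.

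Of 27 published targets of miR-214 that were tested, 0 were called, and the median log2 fold change was -0.01. For the 20 with the site, 9 were above 0 and 11 below. Ezh2 had a log2 fold change of -0.15 (standard error 0.21), made up of 0.34 in sham and -0.64 in Ang II, and Xbp1 -0.11 (standard error 0.24), of 0.36 and -0.59. Bcl2l11 was at 0.02 (standard error 0.12). The smallest p was that of Jag1, a Notch ligand without the site in its annotated 3' UTR. It was at 1.69 to 3.39 CPM in WT and 1.56 to 2.17 CPM in miR-214-/-. Its log2 fold change of -0.43 (standard error 0.18) was made up of -0.08 in sham and -0.77 in Ang II. Socs3, the only other target with an unadjusted p under 0.05, also lacked the site and was higher (0.31, standard error 0.13). Protein levels were not measured here.

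Over the 21 gene lists, 0 of 344 members were called, and 8 (2.33%) had an unadjusted p under 0.05 against 1.84% of all genes. None was apart in the same direction in both treatments. For 249 of the 344 the 95% interval lay within -1 and 1.

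Of 20 T cell identity genes, all had a log2 fold change above 0, between 0.03 and 0.28, with a median of 0.11 against 0 for all genes. The median was -0.11 in sham and 0.37 in Ang II. Lef1, a transcription factor of naive T cells, was at 422, 521 and 475 CPM in WT sham against 523, 505 and 458 in miR-214-/- sham, and at 307, 308 and 269 CPM in WT Ang II against 303, 446 and 405. The Lef1 groups overlapped in both treatments (log2 fold change 0.23, standard error 0.10). In these bulk samples, fewer cells of a type and less RNA per cell cannot be told apart. The red-cell precursor list ran from 6.34 to 7.07 mean log2 CPM in WT Ang II but in the miR-214-/- libraries given Ang II only from 4.0 to 5.90, and its part in the T cell values was not tested.

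Of 20 T cell activation genes, 14 were below 0 (median -0.09). Myc, a driver of growth after activation, was at 100 to 131 CPM in WT and at 87.6 to 111 CPM in miR-214-/- (log2 fold change -0.24, standard error 0.07, unadjusted p = 0.00668). Cd44, an adhesion receptor of activated and memory cells, had 0.03 in sham and -0.45 in Ang II. Of 12 tested cytokine genes 8 were below 0 (median -0.06). Tnf had a log2 fold change of -0.22 (standard error 0.13), Ifng one of -0.04 (standard error 0.17) and Tgfb1 one of -0.11 (standard error 0.08). Il17a and Il9 were too low to be tested. Of 17 chemokine receptors the median was -0.02. Ccr6 was at -0.36 (standard error 0.22), made up of -0.72 in sham and -0.01 in Ang II. Ccr1 was at 0.32 (standard error 0.37), made up of 1.10 in sham and -0.41 in Ang II.

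The cell cycle list had a small difference over both treatments beside large ones within each. Its 30 genes were all within -0.19 and 0.10 over both (median -0.05), while the median was 0.76 in sham and -0.81 in Ang II. Mki67, the proliferation marker, was at 116, 124 and 143 CPM in WT sham and at 156, 257 and 270 CPM in miR-214-/- sham. In Ang II it was at 611, 606 and 639 CPM in WT and at 483, 288 and 285 CPM in miR-214-/-. The miR-214-/- libraries of both treatments lay between the WT groups, and the log2 fold change over both was 0.01 (standard error 0.29).

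The 26 genes of PI3K signaling were between -0.14 and 0.12 (median 0), and the 19 of miRNA processing and silencing between -0.31 and 0.12 (median -0.02). All had a 95% interval within -1 and 1. The 12 regulatory T cell genes had a median of -0.09, the 24 interferon-stimulated genes one of 0.10 and the 21 immediate early genes one of 0.01.

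Lists of other cell types differed in their precision. All 10 tested NK cell genes and 9 of 11 megakaryocyte and platelet genes had a 95% interval within -1 and 1, against 1 of 21 red-cell precursor genes and 0 of the 16 neutrophil and 14 B cell genes. The red-cell precursor median was 0.04 over both, from 1.54 in sham and -1.35 in Ang II. All 16 neutrophil genes were above 0 (median 0.47, with 1.43 in sham and -0.36 in Ang II). All 12 dendritic cell genes were below 0 (median -0.39, with -0.53 and -0.34), and of these Clec9a, a receptor of cross-presenting dendritic cells, had the smallest p (-0.62, standard error 0.25). The B cell median was -0.39 (-1.28 in sham and 0.49 in Ang II). The highest mean log2 CPM of that list belonged to WT sham 1 (5.21) and miR-214-/- Ang II 2 (5.52). The dendritic cell list includes MHC class II genes such as H2-Aa and H2-Ab1, and the same libraries were highest within their groups (5.01 and 4.81). Which cells these genes came from was not tested. The plasma cell median was -0.07 (0.91 in sham and -1.03 in Ang II), that of basophils and mast cells 0.06 (0.62 and -0.57) and that of macrophages and monocytes -0.24 (0.13 and -0.68). Megakaryocytes and platelets had a median of 0.23 (0.40 and 0.03) and NK cells one of -0.01 (-0.24 and 0.23). Mcpt4, a mast cell protease, was at 1.59 to 8.25 CPM in WT and 0.615 to 3.11 CPM in miR-214-/- (-1.49, standard error 0.48). Vwf, the platelet adhesion factor, was at 0.47 (standard error 0.21).

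**Figure D5:**
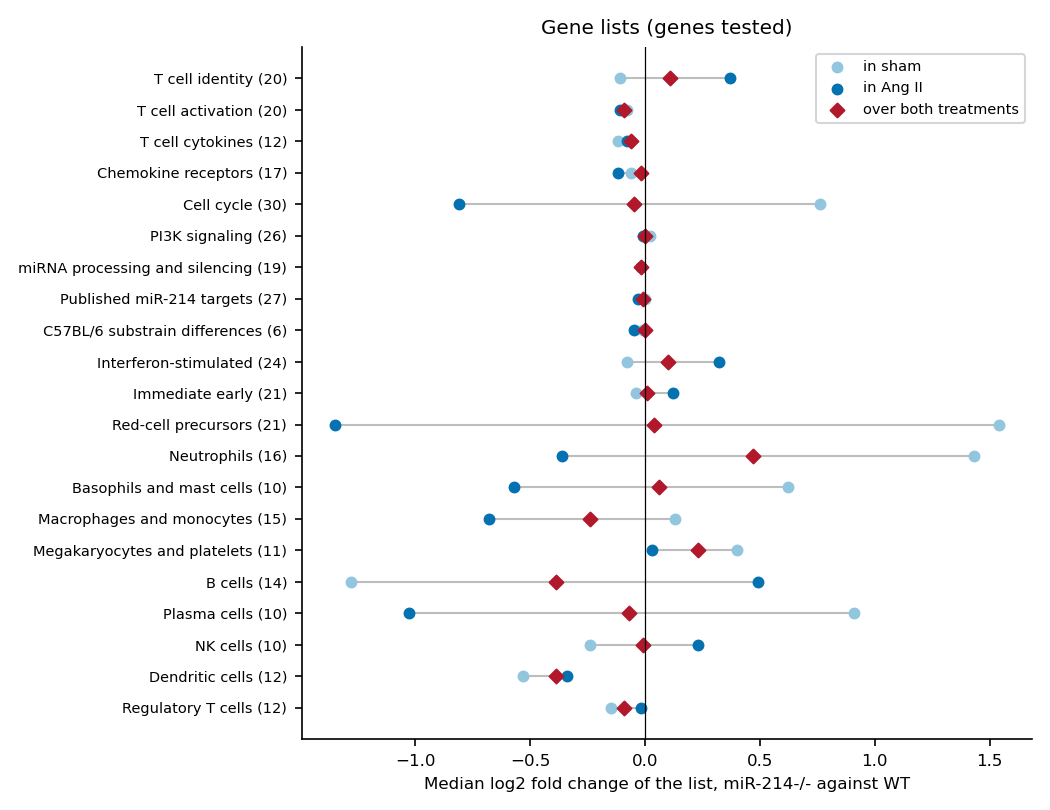
Median log2 fold change of miR-214-/- against WT for each gene list in sham, in Ang II and over both treatments (x axis), with the number of tested genes in brackets. The red diamonds lie between -0.39 and 0.47, and for lists such as cell cycle, red-cell precursors and B cells the medians in sham and Ang II lie on opposite sides of 0.

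Among the 10 genes with the largest log2 fold changes over both treatments, Npm3-ps1 was higher in all 6 miR-214-/- libraries, and the other 9 had high values in only some libraries of a genotype. Rps3a3, annotated as a copy of the ribosomal protein gene Rps3a, was at 219 CPM in 1 WT library (Ang II 1) and at 222, 238, 389 and 259 CPM in 4 miR-214-/- libraries. The other 7 libraries were at 0.524 to 1.14 CPM. Gm26825 was at 15.6 CPM in WT sham 1 and 32.7 CPM in WT Ang II 3 and at most 0.476 CPM elsewhere, and the overlapping Gm15459 on the other strand had the same pattern. Klk1b22, a kallikrein family gene, was at 13.2 CPM or more in 4 WT and in 2 miR-214-/- sham libraries and at most 0.0415 CPM in the other 6. These genes were named for their fold change after the values were seen. High and low values occurred within a genotype, and reads of near-identical copies leave their values uncertain.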

How the data were processed

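RNASeq of splenic T cells gave 12 libraries in 4 groups of 3 mice. The authors trimmed reads with Trimmomatic, mapped them to GRCm38 with STAR, counted unique exonic reads with featureCounts and deposited raw counts without normalization. The annotation release and strand setting are not given in the sources used here. The samples are separate mice, and 0 of the 12 within-group pairs of libraries held identical counts.

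The tests used edgeR 4.0.16 in R 4.3.3 (filterByExpr on the 4 groups, TMM, quasi-likelihood test at its defaults, Benjamini-Hochberg over all genes tested, called at an adjusted p under 0.05), in a model of treatment plus genotype, and for effects within treatments and their difference in a model of 4 group means. DESeq2 1.42.0 was an alternative. The additive fits of edgeR and DESeq2, and the average effect from the 4 group means, were tested on simulated counts with a genotype effect. The simulation held no treatment effect. Effects within treatments, their difference, overlap, permutation, windows and sites were not tested this way. CPM were TMM scaled, and groups were compared for overlap in log2 CPM with a prior count of 2. Intervals cover 95%. Of the 49315 identifiers, 49056 matched the GRCm38 annotation of GENCODE, and the 259 others (0.0245% of counts) stayed in. Sites were matched in annotated 3' UTRs. Figures were drawn in Python 3.11.15 with matplotlib 3.10.9.

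Named genes were the 5 with the smallest p in each direction, since fewer were called, the locus genes and the substrain list. List examples were the members with the smallest p and the highest level, and genes the study measured. Members and lists were chosen with earlier results of these data known. Alternatives were scalings, filters, fits, covariates, thresholds, each treatment alone, the replicate number as a block and leaving out each library.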

Additional observations from a re-analysis of the deposited data

Results flagged for a closer look

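A difference of the genotype effect between treatments was tested directly, and edgeR called 1 gene, Frmd4a, against 2483 genes at an unadjusted p under 0.05 (14.8%) and 444 genes called by DESeq2. Frmd4a encodes a scaffold protein of cell polarity. It was at 18.1, 19.9 and 17 CPM in WT sham and at 25, 28.5 and 26.9 CPM in miR-214-/- sham, and at 46.9, 50.6 and 43 CPM in WT Ang II and at 26, 24.8 and 21.4 CPM in miR-214-/- Ang II. The groups were apart in both treatments, higher in miR-214-/- in sham and lower in Ang II. The difference of its log2 fold changes was -1.51, and its log2 fold change over both treatments was -0.21 (standard error 0.24).

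For 271 genes the 3 miR-214-/- libraries were all beyond the 3 WT libraries in both treatments, but in opposite directions, 149 (0.888% of the 16770 tested) higher in sham and lower in Ang II and 122 (0.727%) the reverse. Except for Frmd4a, these differences did not pass the edgeR test, and for the count as such the difference was not tested. With labels permuted within treatments, a gene is apart in opposite directions with a probability of 0.005, as it is for the same direction. Of the 30 cell cycle genes, 10 were higher in sham and lower in Ang II, and 0 ran in the other direction. Beyond that list, 2 members of the 21 lists were in the set, 1 cytokine gene and 1 published target.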

How the results depend on the processing

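Over both treatments 0 genes were called by edgeR under each scaling, filter, fit, covariate and threshold tried, in Ang II alone, and in all 12 fits that left out a library, and 4 were called in sham alone (2 of them with the 3' UTR site) and 1 by DESeq2. The fits of 1 treatment hold fewer libraries. Within 20 Mb of Mir214, and among list members, the counts stayed at 0. In sham, DESeq2 called 9 genes, in Ang II 102 and for the difference between treatments 444, and scaling by library size left 0 called in Ang II. Leaving out 1 library gave 0 to 1 genes in sham, 0 to 862 in Ang II and 0 to 919 for the difference, the highest both without miR-214-/- Ang II 1, and the cause was not tested. Genes at an unadjusted p under 0.05 numbered 267 to 536 over these fits, with 536 without WT sham 1, 512 without miR-214-/- sham 3 and 493 without miR-214-/- Ang II 1. The count was 613 with no filter and 528 with the cell cycle covariate. Replicate numbers did not pair the samples (correlations of -0.56 to 0.341, with 7 of 18 over 0.1), 2 of 12 libraries correlated best with their own number, and a replicate block left 0 called and 279 unadjusted. Values near 0 changed sign: Nlrp12 was 1.14 and Cyfip2 -0.03 and Wdfy1 -0.01 in sham alone, Ide -0.09 in Ang II alone and Nlrp12 0.02 with the cell cycle covariate. With 1 library left out, Nlrp12 ran from -0.65 to 0.28, Nnt from -0.09 to 0.03, Wdfy1 and Ide from -0.01 to 0.06 and Fgfbp3 from -0.10 to 0.05. The number of genes apart in both treatments in the same direction was 33 with RLE scaling and 40 with library size, and in opposite directions 271 and 248. Alternatives for results within treatments, windows around Sfxn2 and overlap were chosen after seeing the data. At these depths, genes under about 1 CPM rest on few counts.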

Other observations

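The digestive enzymes Cpa1, Ctrb1 and Cela2a, which acinar cells of the pancreas make, were among the 10 genes with the largest absolute log2 fold change. Their values were low. Ctrb1 was at 0.262, 2.22 and 0.137 CPM in WT sham and at 0.914, 1.32 and 0.0424 CPM in WT Ang II, and at most 0.415 CPM in miR-214-/-. Cpa1 was at most 0.998 CPM in WT and 0.186 CPM in miR-214-/-, and Cela2a at most 1.16 and 0.249 CPM. The higher values were in WT sham 2, WT Ang II 1 and WT Ang II 2, and the other WT libraries overlapped with miR-214-/-.

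Gm38312, which lies within Sh3bp4 on chromosome 1, had 28 counts in miR-214-/- sham 1 and 0 in the other 5 miR-214-/- libraries (up to 3 each are possible at 0). In WT it had 18, 91, 57, 77, 0 and 75 counts. The groups overlapped through WT Ang II 2 and miR-214-/- sham 1.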
